A study of Mus musculus with 10 samples.

Results

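The genes described here are 10 components of the Nodal and Activin signaling pathway: the ligand genes *Nodal* and *Gdf3*, the co-receptor gene *Tdgf1*, the receptor genes *Acvr1b* and *Acvr2b*, the effector gene *Smad2*, and the feedback or antagonist genes *Smad7*, *Skil*, *Lefty1* and *Lefty2*. They were chosen by name out of 21938 protein-coding genes, with earlier results of these data known, so shares of all genes are given for scale only. A peak was assigned to a gene where at least 1 bp of it lay between 1000 bp before and 100 bp after any transcription start site of the gene (TSS; GRCm38, GENCODE release M21). A gene with such a peak is called marked. All 10 genes were marked in at least 1 of 10 H3K4me3 libraries, as were 11632 genes in all.

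H3K4me3, a histone mark found at the promoters of transcribed genes, was mapped with CUT&Tag, which tethers the Tn5 transposase to the mark through an antibody. The cells were naive extra-embryonic endoderm (nEnd), an in vitro model of primitive endoderm (PrE), made from the OCT4-mCherry mouse embryonic stem cell (ESC) reporter line and labelled as not treated. The 3 populations were sorted by FACS on OCT4-mCherry and on PDGFRA at the cell surface: Oct4+ nEnd (4 libraries), double-positive or DP nEnd (3 libraries) and Pdgfra+ nEnd (3 libraries). The study assigns DP and Pdgfra+ cells to the endodermal part of the culture. It describes Oct4+ cells as pluripotent cells that have de-differentiated. According to the study's methods nEnd is expanded on mouse embryonic fibroblasts in RACL medium, which contains Activin A, CHIR99021 and LIF. A ligand of the pathway was thus present in the culture of every population. The model is 1 reporter line, and each library is a population average in which a smaller share of cells with a marked promoter and less mark per cell cannot be told apart.

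Nodal, GDF3 and the activins are ligands of the TGF-beta family that bind type II receptors such as ACVR2B and the type I receptor ACVR1B, and Nodal and GDF3 also need the membrane co-receptor TDGF1 (Cripto). The receptors phosphorylate SMAD2, which enters the nucleus with SMAD4 and, together with FOXH1, activates targets that include *Nodal* itself, *Lefty1*, *Lefty2*, *Smad7* and *Skil*. LEFTY1 and LEFTY2 are secreted antagonists, SMAD7 blocks the receptors and SKIL represses SMAD-dependent transcription, so the pathway holds both positive and negative feedback. In the embryo it acts in the epiblast (Epi) and in the extra-embryonic endoderm.

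For each peak the deposited lists give the summed coverage, called total signal here, and the coverage at its highest point. These values were not scaled between libraries, so both are given as the percentile of a peak among all peaks of its own library, where 100 is the highest. The libraries held 3477 to 10545 peaks, and the number of reads behind them is unknown, so that a promoter with no peak is not detected under the authors' stringent setting rather than shown to lack the mark. Oct4+ nEnd replicates 1, 2 and 4 held 9144, 8098 and 4887 peaks, and replicate 4 held fewer than any DP or Pdgfra+ library, where the fewest were 6510. Oct4+ nEnd replicate 3 stood apart with the 3477 peaks, the fewest, and a median highest coverage of 22 against 38 to 59 in the other Oct4+ libraries. It does not contribute to the Oct4+ consensus list. It was kept as labelled. Without it, 0 of 36 limma comparisons of the 10 genes with Oct4+ nEnd changed sides of the threshold. Of marker promoters, 7 of 7 Epi markers were marked in every Oct4+ library, 5 to 7 in DP and 0 to 3 in Pdgfra+ libraries, 7 of 7 PrE markers in every DP and Pdgfra+ library and 0 to 4 in Oct4+ libraries, and 7 of 8 fibroblast markers had no peak in any library, the exception being *Twist1*.

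Promoter sequences from 250 bases before to 50 bases after the start were given for 4 of the 10 genes (RefSeq, GRCm38.p6), and they are shown because they contrast promoters without a peak in Pdgfra+ nEnd (*Nodal* and *Tdgf1*) with promoters marked in every library (*Acvr1b* and *Acvr2b*). They lie at chr10:61417722-61418021 on the plus strand (*Nodal*), chr9:110946109-110946408 on the minus strand (*Tdgf1*), chr15:101173822-101174121 on the plus strand (*Acvr1b*) and chr9:119401928-119402227 on the plus strand (*Acvr2b*), and the capitals mark CpG dinucleotides.
Nodal: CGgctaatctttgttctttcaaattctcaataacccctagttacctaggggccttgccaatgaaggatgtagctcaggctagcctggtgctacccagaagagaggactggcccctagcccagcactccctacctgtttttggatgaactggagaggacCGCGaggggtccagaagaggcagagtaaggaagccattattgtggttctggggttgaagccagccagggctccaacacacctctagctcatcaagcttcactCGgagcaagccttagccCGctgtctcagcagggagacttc
Tdgf1: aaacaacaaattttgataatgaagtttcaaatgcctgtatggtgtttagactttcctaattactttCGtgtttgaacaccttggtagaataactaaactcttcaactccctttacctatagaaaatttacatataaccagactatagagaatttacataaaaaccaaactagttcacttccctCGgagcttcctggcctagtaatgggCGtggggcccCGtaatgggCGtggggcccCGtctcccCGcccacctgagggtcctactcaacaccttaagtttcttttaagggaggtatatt
Acvr1b: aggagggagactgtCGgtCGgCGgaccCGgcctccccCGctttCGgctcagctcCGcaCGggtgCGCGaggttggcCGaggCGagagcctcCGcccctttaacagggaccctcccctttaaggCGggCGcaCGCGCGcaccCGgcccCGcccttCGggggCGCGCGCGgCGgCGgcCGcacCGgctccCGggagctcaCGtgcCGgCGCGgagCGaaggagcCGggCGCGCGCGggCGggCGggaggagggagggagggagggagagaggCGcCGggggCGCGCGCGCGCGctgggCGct
Acvr2b: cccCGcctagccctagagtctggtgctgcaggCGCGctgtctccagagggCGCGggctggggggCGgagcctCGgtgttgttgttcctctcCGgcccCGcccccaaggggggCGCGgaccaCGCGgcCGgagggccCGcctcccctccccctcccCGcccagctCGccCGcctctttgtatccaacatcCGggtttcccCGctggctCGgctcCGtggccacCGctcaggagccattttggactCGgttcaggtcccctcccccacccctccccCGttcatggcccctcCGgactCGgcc
The *Nodal* window held 5 CpGs and the *Tdgf1* window 7, while the *Acvr1b* window held 51 and the *Acvr2b* window 27. The median over 32851 RefSeq promoters was 7. Thus 38.0% of all promoters had fewer CpGs than *Nodal*, 47.9% had fewer than *Tdgf1*, 84.5% had fewer than *Acvr2b* and 99.3% had fewer than *Acvr1b*. Other pathway genes went both ways. The windows of *Inhbb* and *Pcsk6*, both without a peak in Pdgfra+ nEnd, held 23 and 52 CpGs. In 1 of the windows of *Acvr1c*, which had no peak in any library, there were 39. On the other side, *Inhba* and *Cer1*, without a peak in any library, held 7 and 6. *Acvr2a* and *Ski*, marked in every DP and Pdgfra+ library, held 54 and 59. A relation of the CpG count to the marking was not tested. Motifs were searched as letters on both strands, none of which contains another: GTCTAGAC (SMAD palindrome, in 0.213% of all promoters), CAGACA (SMAD element, 21%), AATCCACA (FOXH1, 0.855%), CTTTGAT (TCF, 3.73%), ATGCAAAT (octamer, 1.74%), TTCCNGGAA (STAT3, 1.15%), AGATAA (11.2%, an element of GATA factors) and TATAAA (13.6%, the core of the TATA box). None of these letters occurred in any of the 4 windows.

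The genes of the pathway were not marked alike. Of the 10, 3 genes (*Nodal*, *Gdf3* and *Tdgf1*) had a promoter peak in every Oct4+ library and in no Pdgfra+ library, a pattern of 0.672% of the 11614 genes marked in either population. That share depends on the number of peaks kept: with the same number in each library, more genes of the genome had the pattern. *Nodal* and *Gdf3* were also marked in every DP library, but there by broad, low peaks. Another 5, *Acvr1b*, *Acvr2b*, *Smad2*, *Smad7* and *Skil*, were marked in all 10 libraries, as were 31.1% of the 11632 genes. *Lefty1* and *Lefty2* were marked in 3 of 4 Oct4+ libraries and nowhere else. Of the 10 genes, 10, 10, 8 and 10 were marked in Oct4+ replicates 1 to 4, 7, 8 and 7 in DP replicates 1 to 3, and 5 in each Pdgfra+ library. Of all protein-coding genes, 43.5%, 39.5%, 18.3% and 25.2% were marked in Oct4+ replicates 1 to 4. The shares were 41.5%, 44.8% and 39.1% in DP replicates 1 to 3 and 50.8%, 33.5% and 39.7% in Pdgfra+ replicates 1 to 3. The consensus lists marked 10 of the 10 genes for Oct4+, 7 for DP and 5 for Pdgfra+ nEnd, while over all protein-coding genes they marked 8649, 9218 and 8869. Thus the number of these 10 genes marked was lowest in Pdgfra+ nEnd, where the number of all genes marked was not. Among the other pathway genes described below, grouped by role, the mean number marked per library was not always lowest there. It was lowest in Oct4+ nEnd for ligands, receptors, inhibitors and SMADs with their regulators. For co-receptor and processing genes and for partner factors and targets it was lowest in Pdgfra+ nEnd.

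**Figure D1:**
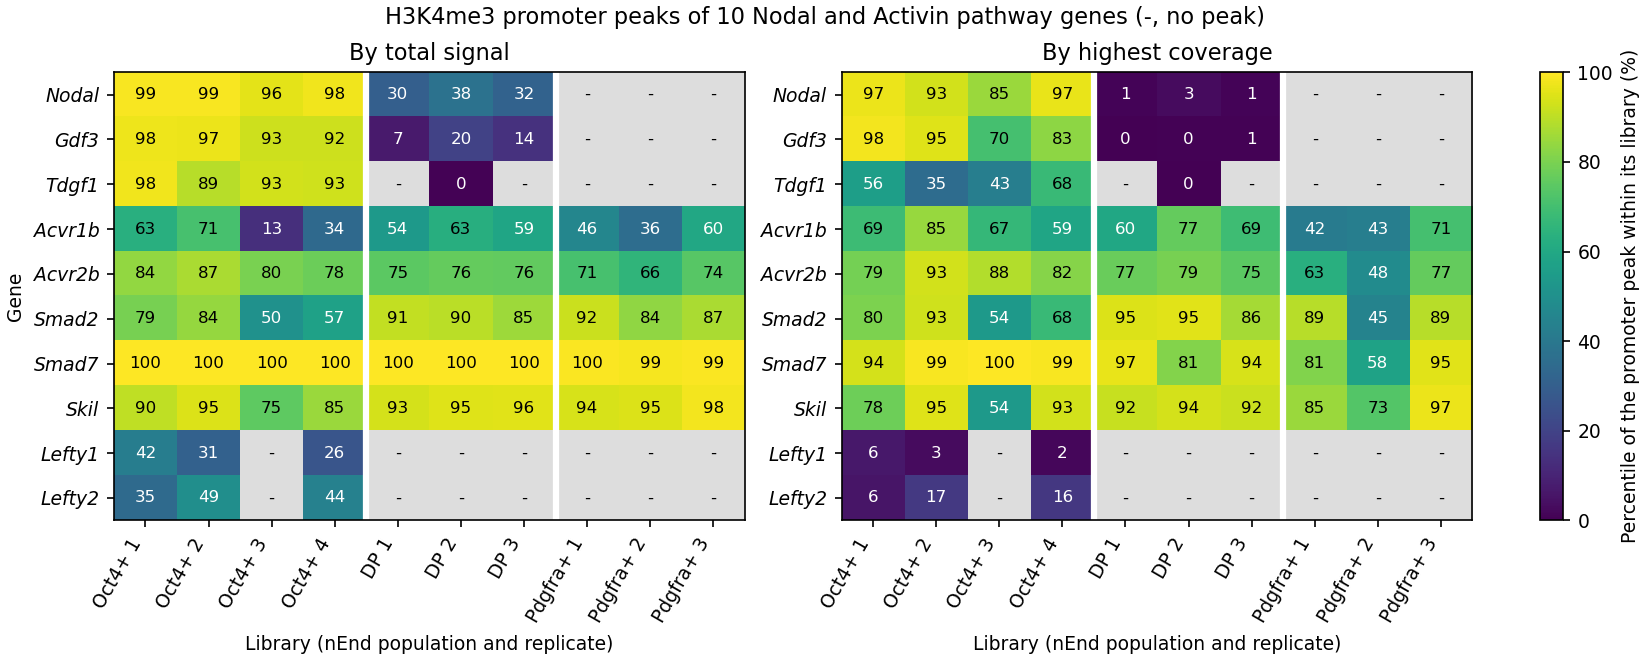
Percentile of the H3K4me3 promoter peak within its library, by total signal (left) and by highest coverage (right), for 10 genes (rows) in 4 Oct4+, 3 DP and 3 Pdgfra+ nEnd libraries (columns). Gray cells with a dash have no promoter peak, and the DP cells of Nodal and Gdf3 are far lower by highest coverage, at most 2.93, than by total signal, at most 37.9.

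*Nodal* encodes the ligand that gives the pathway its name (chr10:61417972-61425338, plus strand, 1 TSS). Its promoter peak covered 10448, 9809, 6551 and 10151 bp in Oct4+ replicates 1 to 4, from upstream of the TSS across much of the gene. By total signal these peaks were at percentiles 98.9, 99.1, 95.7 and 98.0 of their libraries, and by highest coverage at 96.9, 93.3, 85.1 and 96.8. In DP nEnd the peak was nearly as wide, with 8504, 8154 and 6403 bp in replicates 1 to 3, but it was at percentiles 30.4, 37.9 and 31.6 by total signal and at 0.806, 2.93 and 0.970 by highest coverage. No DP library overlapped the range of the Oct4+ libraries by either rank, whereas the widths overlapped. No *Nodal* peak was called in any Pdgfra+ library. The neighbors *Pald1* and *Eif4ebp2*, the next protein-coding genes on each side, were marked in 1 of 3 and in 3 of 3 Pdgfra+ libraries.

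The ranks of *Nodal* in Oct4+ and DP nEnd were compared with limma on normal scores of the percentiles over the 3882 genes that were marked in all 7 libraries, in which 7 of the 10 pathway genes could be tested. *Nodal* was higher in Oct4+ nEnd by 2.54 ± 0.214 (SE) score units by total signal (adjusted p = 0.000636) and by 3.78 ± 0.295 by highest coverage (adjusted p = 2.27e-05). Over all genes tested the median difference was -0.247 by total signal and -0.148 by highest coverage, so the difference at *Nodal* ran against the general shift. Without Oct4+ replicate 3 it was 2.67 (adjusted p = 0.00119) and 3.96 (adjusted p = 2.77e-05). The log2 width differed by 0.25 ± 0.226 (SE), which was within the spread between libraries (adjusted p = 0.71).

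*Gdf3* encodes a ligand related to Nodal that also signals through TDGF1 (chr6:122605403-122610087, minus strand, 2 TSS). In Oct4+ replicates 1 to 4 its peak covered 7964, 5833, 6450 and 6170 bp, at percentiles 97.5, 97.0, 92.5 and 92.3 by total signal and 98.1, 94.9, 70.4 and 82.9 by highest coverage. In DP replicates 1 to 3 it covered 6284, 6957 and 5407 bp, at percentiles 7.36, 19.8 and 14.2 by total signal and 0.289, 0.492 and 0.581 by highest coverage. The ranks of the 2 populations did not overlap and the widths did, the pattern seen at *Nodal*. There was no peak in Pdgfra+ nEnd. The difference between Oct4+ and DP nEnd was 2.80 ± 0.236 (SE) score units by total signal (limma, adjusted p = 0.000636) and 3.93 ± 0.358 by highest coverage (adjusted p = 5.90e-05), and without Oct4+ replicate 3 it was 2.88 and 4.18. The log2 width differed by 0.08 ± 0.198 (SE; adjusted p = 0.892). The genes on each side, *Apobec1* and *Dppa3*, had no promoter peak in any library.

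**Figure D2:**
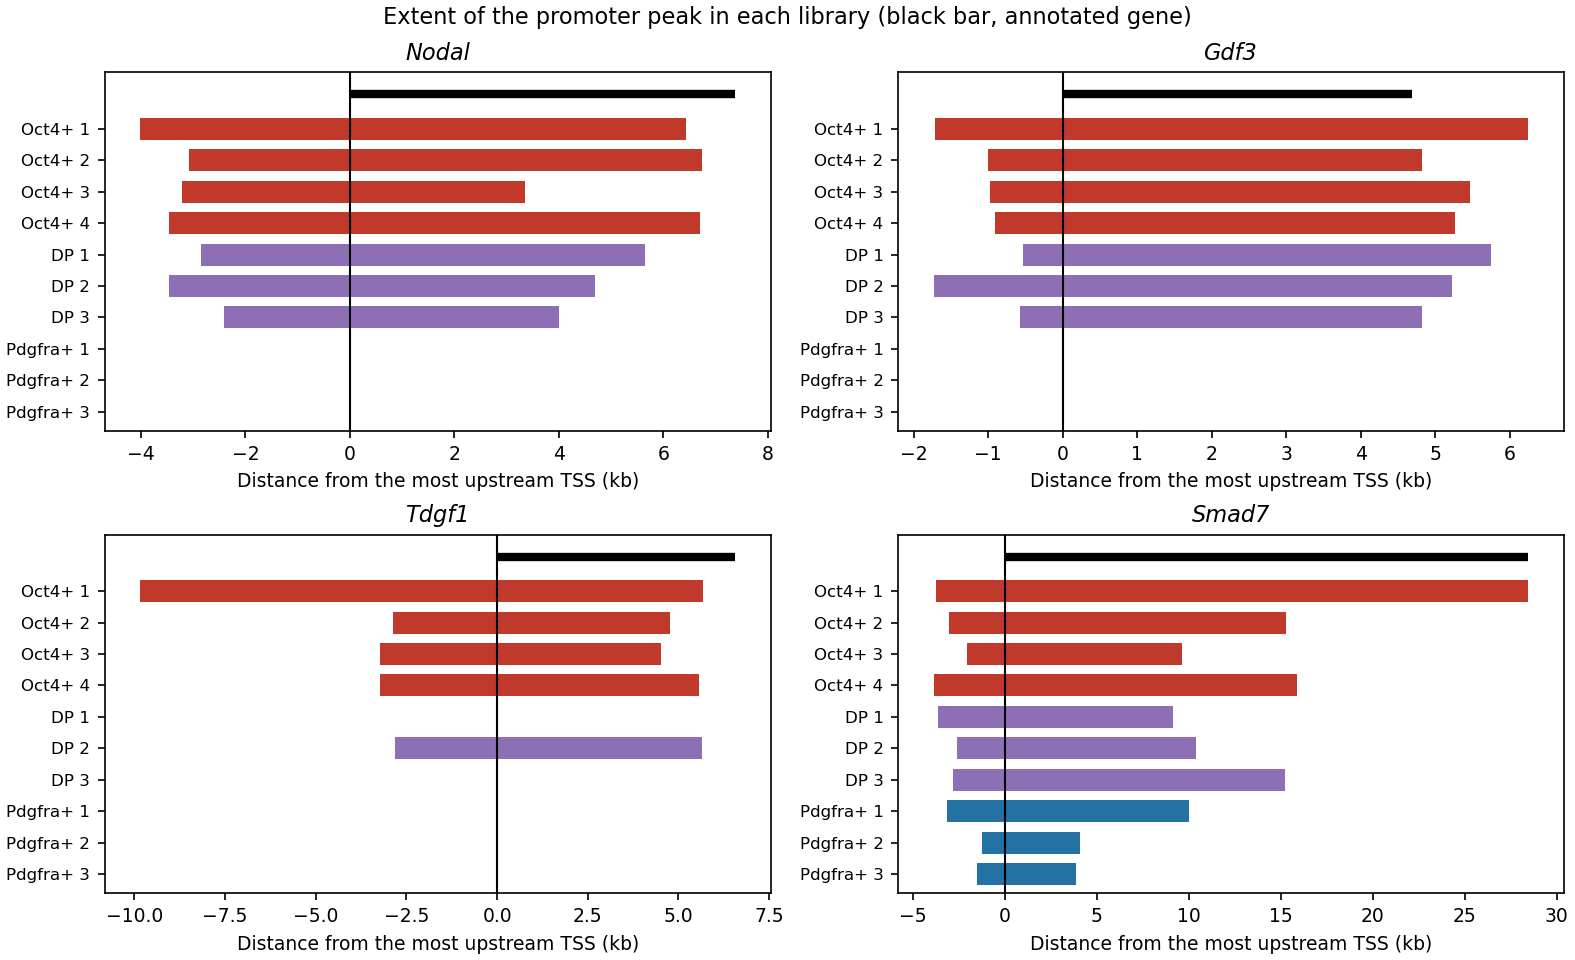
Extent of the promoter peak (horizontal bars) in each of the 10 libraries at Nodal, Gdf3, Tdgf1 and Smad7, as the distance in kb from the most upstream TSS in the direction of transcription, with the annotated gene as a black bar. At Nodal and Gdf3 the DP bars are about as long as the Oct4+ bars, rows without a bar had no peak, and the Smad7 bars run from 5345 to 32196 bp.

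*Tdgf1* encodes Cripto, the co-receptor that Nodal and GDF3 share (chr9:110939603-110946158, minus strand, 4 TSS). Its promoter was marked in all 4 Oct4+ libraries, over 15508, 7635, 7754 and 8794 bp. The peaks were at percentiles 97.7, 89.4, 93.0 and 92.9 by total signal but at 56.2, 35.3, 42.8 and 67.8 by highest coverage, so that *Tdgf1* was wide rather than high also in Oct4+ nEnd. In replicate 1 the peak also held the promoter of the neighbor *Lrrc2*. In DP nEnd 1 of 3 libraries, replicate 2, had a peak, of 8461 bp, and it was among the weakest of that library, at percentile 0.441 by total signal and 0.0226 by highest coverage. There was none in the DP consensus list or in Pdgfra+ nEnd. With a peak in 1 of 3 DP libraries the ranks of *Tdgf1* were not tested against Oct4+ nEnd.

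*Lefty1* and *Lefty2*, genes for secreted Nodal antagonists (chr1:180935022-180938400 and chr1:180893108-180899103, both on the plus strand), were the least marked of the 10. *Lefty1* had peaks of 5989, 4934 and 5086 bp in Oct4+ replicates 1, 2 and 4, at percentiles 42.2, 30.9 and 26.4 by total signal and 6.30, 2.91 and 1.57 by highest coverage. *Lefty2* had peaks of 4304, 3885 and 6312 bp in the same libraries, at percentiles 34.6, 49.4 and 44.1 by total signal and 5.57, 16.6 and 16.1 by highest coverage. Neither had a peak in Oct4+ replicate 3, in DP nEnd or in Pdgfra+ nEnd. With replicate 3 the presence of each peak did not separate Oct4+ nEnd from Pdgfra+ nEnd (Fisher's exact test, two-sided, p = 0.143).

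*Acvr1b* and *Acvr2b* encode the type I and type II receptors (chr15:101174067-101213684, 1 TSS, and chr9:119402118-119434995, 5 TSS, both on the plus strand), and both were marked in all 10 libraries. *Acvr1b* had the narrowest peak of the 10 genes in 9 of 10 libraries, with 3474, 2903, 1676 and 2246 bp in Oct4+ nEnd, 4071, 3357 and 2999 bp in DP nEnd and 3795, 1688 and 2499 bp in Pdgfra+ nEnd. Its percentile by total signal was 63.1, 71.0, 13.3 and 34.2 in Oct4+ nEnd, 54.3, 62.7 and 58.8 in DP nEnd and 45.8, 35.6 and 59.8 in Pdgfra+ nEnd, ranges that overlapped throughout. *Acvr2b* was at 83.9, 87.3, 80.0 and 77.6 in Oct4+ nEnd, at 74.9, 76.2 and 75.8 in DP nEnd and at 70.8, 65.6 and 73.9 in Pdgfra+ nEnd. The *Acvr2b* values of the 3 populations did not overlap, but the differences were small: Oct4+ nEnd exceeded Pdgfra+ nEnd by 0.403 ± 0.242 (SE) score units (limma, adjusted p = 0.304) and DP nEnd by 0.237 ± 0.181 (adjusted p = 0.408). When the percentile was taken among the genes marked in all 10 libraries, or over equal numbers of peaks, the *Acvr2b* differences from both populations passed the threshold, with adjusted p as low as 0.0119 against Pdgfra+ nEnd and 0.0152 against DP nEnd. No other comparison of the receptors passed in any measure, except *Acvr2b* by highest coverage against Pdgfra+ nEnd with equal numbers of peaks (adjusted p = 0.0376).

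*Smad2*, the receptor-regulated effector (chr18:76241580-76310963, plus strand, 6 TSS), was also marked throughout. By total signal it was at percentiles 79.5, 84.1, 50.4 and 57.2 in Oct4+ nEnd, at 90.8, 89.8 and 85.2 in DP nEnd and at 92.0, 83.5 and 87.4 in Pdgfra+ nEnd. All DP libraries were above all Oct4+ libraries, and the Pdgfra+ libraries overlapped both. The differences were -0.712 ± 0.277 (SE) score units for Oct4+ minus DP nEnd (limma, adjusted p = 0.150) and -0.671 ± 0.308 for Oct4+ minus Pdgfra+ nEnd (adjusted p = 0.195). They passed the threshold with equal numbers of peaks or with the percentile taken among genes marked in all 10 libraries, with adjusted p as low as 0.0219 and 0.0237. *Smad2* peaks covered 2591 to 3976 bp in Oct4+ nEnd, 3681 to 6292 bp in DP nEnd and 2766 to 6369 bp in Pdgfra+ nEnd, a log2 width lower by 0.66 ± 0.247 (SE) in Oct4+ than in DP nEnd (adjusted p = 0.426).

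*Smad7*, the inhibitory SMAD and a direct target of the pathway (chr18:75367529-75395935, plus strand, 5 TSS), had the widest peak of the 10 genes in 9 of 10 libraries. By total signal its percentile was 99.7 or more in Oct4+ and DP nEnd and 98.5 to 99.5 in Pdgfra+ nEnd. The peak covered 32196, 18343, 11702 and 19763 bp in Oct4+ nEnd, 12777, 13030 and 18036 bp in DP nEnd and 13174, 5345 and 5366 bp in Pdgfra+ nEnd. It was 2.66 times wider in Oct4+ than in Pdgfra+ nEnd (log2 difference 1.41 ± 0.380 SE; limma, adjusted p = 0.0482), where the median ratio over all 3616 genes tested was 1.2. Of these genes, 2.32% were wider in Oct4+ nEnd by the same test. Without Oct4+ replicate 3 the log2 difference was 1.65 (adjusted p = 0.00391). The call was lost with promoters taken as 2500 bp to either side of the TSS, with equal numbers of peaks, without Oct4+ replicate 1, whose peak spans the annotated gene to its end (log2 difference 1.16, adjusted p = 0.121), and without Pdgfra+ replicate 2 (1.19, adjusted p = 0.317) or replicate 3 (1.2, adjusted p = 0.212). It was also lost when width was ranked within each library (adjusted p = 0.249), and the smallest width in Oct4+ nEnd, 11702 bp, was below the largest in Pdgfra+ nEnd. By highest coverage *Smad7* was at percentiles 93.7, 98.9, 99.7 and 99.1 in Oct4+ nEnd, 96.7, 81.3 and 94.1 in DP nEnd and 81.1, 57.8 and 95.3 in Pdgfra+ nEnd, a difference of 1.31 ± 0.430 (SE) score units between Oct4+ and Pdgfra+ nEnd (adjusted p = 0.139). That difference passed without Oct4+ replicate 1, with equal numbers of peaks, among the genes marked in all 10 libraries and relative to their median (adjusted p as low as 0.0160). By total signal it passed with equal numbers of peaks and among the genes marked in all 10 libraries (as low as 0.0102). Leaving out 1 library also gave a call for highest coverage against DP nEnd (without Oct4+ replicate 1, adjusted p = 0.0482) and for width in DP against Pdgfra+ nEnd (without Pdgfra+ replicate 1, adjusted p = 0.00797).

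*Skil* encodes SnoN, a repressor of SMAD targets that the pathway itself induces (chr3:31095058-31122577, plus strand, 5 TSS). Its peaks were strong in every library, at percentiles 90.3, 94.9, 75.2 and 85.1 by total signal in Oct4+ nEnd, 93.4, 95.1 and 95.6 in DP nEnd and 94.0, 94.6 and 98.3 in Pdgfra+ nEnd. The Oct4+ values reached into the range of the others through replicate 2. Oct4+ minus Pdgfra+ nEnd was -0.593 ± 0.298 (SE) score units (limma, adjusted p = 0.229) and Oct4+ minus DP nEnd was -0.461 ± 0.247 (adjusted p = 0.256). Its widths overlapped, with 3213 to 5984 bp in Oct4+, 3455 to 7406 bp in DP and 2703 to 4424 bp in Pdgfra+ nEnd.

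Other patterns of presence were set beside those of all genes. None of the 10 genes was marked in every Pdgfra+ and no Oct4+ library, a pattern of 2.69% of genes. *Nodal* and *Gdf3* were marked in every DP library and no Pdgfra+ library, as were 0.214% of 11222 genes. None of the 10 was marked in every Oct4+ and no DP library (0.415% of 10603 genes), in every DP and no Oct4+ library (3.99%) or in every Pdgfra+ and no DP library (0.00891%). Across all 3 populations, 0.198% of 11632 genes were marked in every Oct4+ and DP library and in no Pdgfra+ library, among them *Nodal* and *Gdf3*. Fisher's exact test of a single gene cannot go below p = 0.0286 with 4 against 3 libraries or below 0.1 with 3 against 3, and after Benjamini-Hochberg adjustment no gene of the genome passed (smallest adjusted p = 0.649, Oct4+ against DP nEnd). Before adjustment, *Nodal*, *Gdf3* and *Tdgf1* each reached p = 0.0286 in Fisher's exact test (two-sided) for Oct4+ against Pdgfra+ nEnd. The presence of *Nodal* and *Gdf3* in DP nEnd depended on the number of peaks kept: with the 3477 peaks of highest total signal in each library, neither was marked in any DP library.

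By limma, 2 of 7 pathway genes tested (*Nodal* and *Gdf3*) were higher in Oct4+ than in DP nEnd, both by total signal, where 4.12% of 3882 genes were higher in Oct4+ nEnd, and by highest coverage, where 3.04% were. None of the 7 differed in width, nor did more than 0.155% of all genes. Between Oct4+ and Pdgfra+ nEnd, none of 5 pathway genes tested differed by total signal or by highest coverage, where 4.95% and 1.44% of 3616 genes did, and 1 of 5, *Smad7*, was wider in Oct4+ nEnd, as were 2.32% of genes. That call ended under 6 of 14 alternatives. Between DP and Pdgfra+ nEnd, none of 5 differed in any measure. There the test called 0% of 7174 genes by total signal (325 at an unadjusted p under 0.05), 0.0139% by highest coverage and 0.572% as wider in DP nEnd.

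The height of the peaks was also put on a scale of its own. For each library the highest coverage was divided by the median highest coverage over the 3616 genes marked in all 10 libraries, a scale chosen after the data were seen. On this scale *Nodal* was at 1.41 ± 0.186 (SD, n = 4) in Oct4+ nEnd and at 0.254 ± 0.011 (SD, n = 3) in DP nEnd, a ratio of DP to Oct4+ of 0.180. *Gdf3* was at 1.28 ± 0.137 (SD, n = 4) and 0.193 ± 0.0249 (SD, n = 3), a ratio of 0.151. Without Oct4+ replicate 3 the Oct4+ levels were 1.44 ± 0.218 for *Nodal* and 1.33 ± 0.112 for *Gdf3* (SD, n = 3). *Tdgf1* was at 0.785 ± 0.190 (SD, n = 4) in Oct4+ nEnd and at 0.0905 in its single DP library. *Lefty1*, at 0.292 ± 0.042 (SD, n = 3), and *Lefty2*, at 0.414 ± 0.10 (SD, n = 3), were in Oct4+ nEnd nearer to the DP than to the Oct4+ level of *Nodal*. The 5 genes marked in all libraries stayed between 0.563 and 2.38 in every library.

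**Figure D3:**
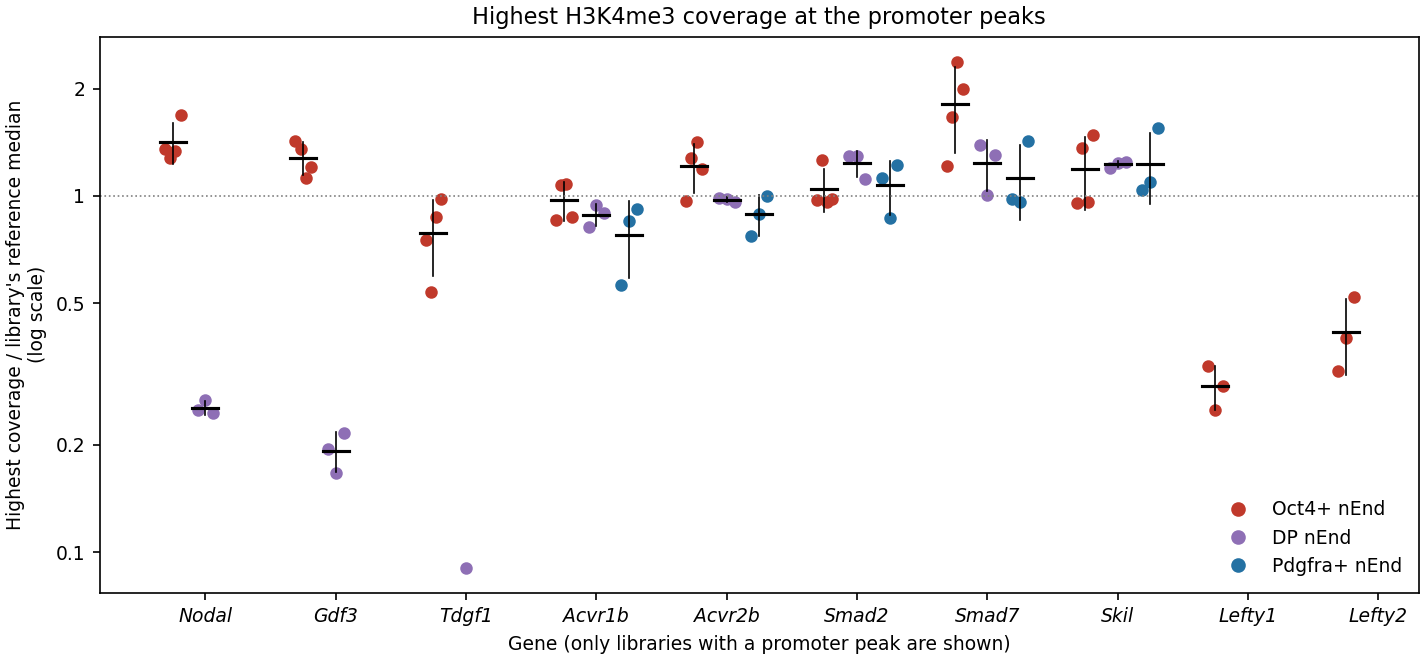
Highest coverage of the promoter peak divided by the library's median over 3616 genes marked in all 10 libraries (log scale), for 10 genes, with 1 point per library that has a peak, black horizontal lines for means and vertical lines for 1 SD. Nodal and Gdf3 sit above 1 in Oct4+ nEnd and near 0.2 in DP nEnd, while Acvr1b, Acvr2b, Smad2, Smad7 and Skil stay near 1 or above 0.5 in all 3 populations.

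In DP nEnd the peaks of *Nodal* and *Gdf3* were thus wide and low at once. By width *Nodal* was at percentiles 96.7, 94.2 and 93.3 of DP replicates 1 to 3 and *Gdf3* at 88.1, 89.7 and 86.7, close to their width percentiles of 94.1 to 98.7 and 83.7 to 93.8 in Oct4+ nEnd. Both were in all 3 DP libraries among the lowest 5% of peaks by highest coverage and in the widest 25% of peaks, limits set after the data were seen. Peaks with both features were 1.37% to 1.48% of all peaks of a DP library. The single DP peak of *Tdgf1* was of the same kind, at percentile 95.2 by width. In Oct4+ nEnd 1 of 3 *Lefty1* peaks was, and no other peak of the 10 genes in any library. Peaks of this kind were 1.73% to 2.24% of all peaks of an Oct4+ library.

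**Figure D4:**
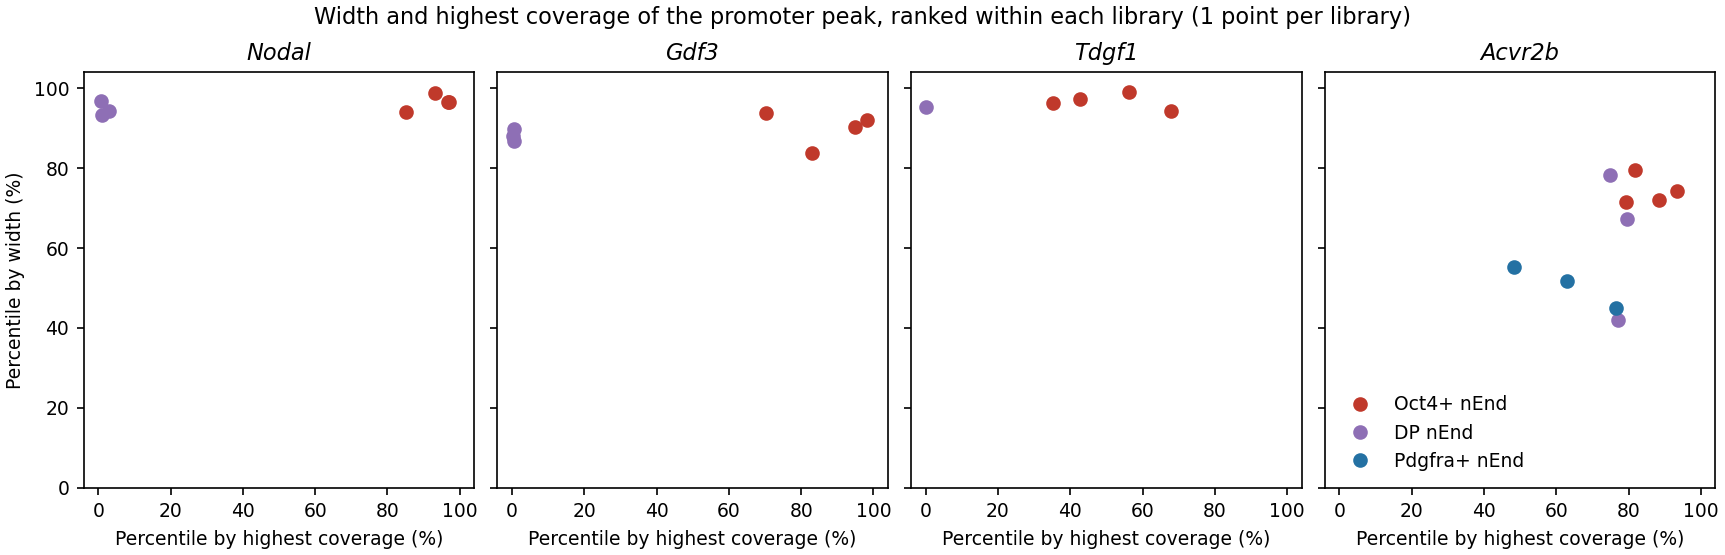
Percentile by width against percentile by highest coverage within the library for the promoter peaks of Nodal, Gdf3, Tdgf1 and Acvr2b, 1 point per library, colored by population. DP points of Nodal, Gdf3 and Tdgf1 lie at the left edge with width percentiles from 86.7 to 96.7, whereas the Acvr2b points of all populations lie to the right.

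Of 7 Epi markers, 4 had the presence pattern of *Nodal* and *Gdf3*. *Pou5f1* and *Nanog*, which encode core factors of pluripotency, *Sox2*, their partner, and *Esrrb*, a naive pluripotency factor, were marked in 4 of 4 Oct4+, 3 of 3 DP and 0 of 3 Pdgfra+ libraries, and *Klf2* in 4, 3 and 1. The other two were not marked in every DP library, *Zfp42* with 4 of 4, 2 of 3 and 1 of 3 libraries and *Tfcp2l1* with 4 of 4, 1 of 3 and 1 of 3, and their ranks were not tested. The 5 that could be tested were all higher in Oct4+ than in DP nEnd by total signal and by highest coverage (limma, adjusted p from 1.67e-05 to 0.00273, and without Oct4+ replicate 3 from 2.77e-05 to 0.00381). Their highest coverage in DP nEnd relative to Oct4+ nEnd was 0.124 (*Nanog*), 0.190 (*Esrrb*), 0.191 (*Sox2*), 0.221 (*Pou5f1*) and 0.391 (*Klf2*), against 0.180 and 0.151 for *Nodal* and *Gdf3*. Low and wide peaks were seen in 3 of 3 DP libraries for *Nanog* and *Esrrb*, in 2 of 3 for *Zfp42*, in 1 of 3 for *Sox2* and in 0 of 3 for *Pou5f1* and *Klf2*. The single DP peak of *Tfcp2l1* was not of this kind. Such peaks were not limited to Epi markers in DP nEnd: the PrE marker *Gata6* had them in all 3 Oct4+ libraries where it was marked. No other PrE marker had one. In highest coverage PrE markers went the other way: *Gata6*, *Sox17* and *Pdgfra* were at 1.56, 1.70 and 1.52 of the reference median in DP nEnd, and in Oct4+ nEnd were marked in 3, 2 and 1 of 4 libraries at 0.264, 0.424 and 0.452. What part the share of Epi-like cells in each sort has in the values of *Nodal* and *Gdf3* was not tested.

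Another 41 genes of the pathway were examined by role. Of 8 further ligand genes, *Inhbb*, which encodes the activin beta B subunit, was marked in all Oct4+ and DP libraries and in no Pdgfra+ library. Its percentiles by total signal were 91.1, 95.4, 83.4 and 70.7 in Oct4+ nEnd and 13, 17.0 and 14.9 in DP nEnd, where its peaks were low and wide in 3 of 3 libraries. The other ligand genes marked, *Inha*, *Gdf11* and *Tgfb1*, had peaks in 2 of 4 Oct4+ and all DP and Pdgfra+ libraries, *Tgfb2* had 1 Pdgfra+ peak, and *Inhba*, *Gdf1* and *Tgfb3* had none. *Inha* and *Tgfb1* lie 625 and 444 bp from another gene, into which their consensus peaks reach. The peaks of *Inha* and *Tgfb1* therefore cannot be assigned to these ligand genes alone. *Pcsk6*, a proprotein convertase that processes Nodal, followed *Inhbb*, with percentiles of 69.7, 83.0, 52.2 and 66.4 in Oct4+ nEnd and 5.41, 14.9 and 1.89 in DP nEnd and no peak in Pdgfra+ nEnd, whereas *Furin*, which encodes a related convertase, was marked in all 10 libraries. The ranges of *Inhbb* and *Pcsk6* in Oct4+ and DP nEnd did not overlap. *Inhbb* was higher in Oct4+ nEnd by 2.18 ± 0.276 (SE) score units (limma, adjusted p = 0.00308) and *Pcsk6* by 2.06 ± 0.301 (adjusted p = 0.00561), and without Oct4+ replicate 3 by 2.23 (adjusted p = 0.00659) and 2.21 (adjusted p = 0.00678). *Foxh1*, which encodes the SMAD2 partner, was also higher in Oct4+ nEnd, with percentiles of 95, 95.8, 83.6 and 93.5 against 58.6, 61.4 and 56.8 in DP nEnd (1.24 ± 0.224 SE, adjusted p = 0.0161), but not after Oct4+ replicate 4 or any 1 DP replicate was left out (adjusted p from 0.0623 to 0.0992). In every Oct4+ and DP library the *Foxh1* peak also held the promoter of *Ppp1r16a*, so its values cannot be assigned to *Foxh1* alone.

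Among the receptors, SMADs and inhibitors outside the 10 genes, *Tgfbr3*, which encodes betaglycan, a co-receptor for inhibins and TGF-beta, had no peak in Oct4+ nEnd and was marked in every DP and Pdgfra+ library, at percentiles of 28.9 to 37.0 and 37.6 to 51.7 by total signal. *Acvr2a*, *Tgfbr1* and *Tgfbr2* were marked in 2 of 4 Oct4+ libraries and in all DP and Pdgfra+ libraries, and *Acvr1c* in none. An Oct4+ library marked from 0 to 3 of these 5 receptor genes, and Oct4+ replicates 3 and 4 held the fewest peaks of the 10 libraries. What part the number of peaks has in such incomplete marking in Oct4+ nEnd, here and among the ligands, SMADs and partner factors, was not tested. All 11 genes for SMADs and their regulators were marked in every DP and Pdgfra+ library and 8 of them in every Oct4+ library, with *Smad3* and *Zfyve9* in 2 and *Smurf1* in 3 of 4. Of 6 inhibitor genes, *Pmepa1* was marked in all 10 libraries and *Fst*, which encodes follistatin, in 1 Oct4+ library and all DP and Pdgfra+ libraries, and *Cer1* and *Dand5* in none. Of the 8 partner factors and targets, *Lhx1* was marked in every DP library, in no Oct4+ library and in 1 Pdgfra+ library, at percentiles of 7.51 to 15.0 in DP nEnd. *Eomes* was marked in 2 Oct4+, 3 DP and 1 Pdgfra+ libraries and *Otx2* in 3 Oct4+ libraries only, and *Mixl1*, *Gsc* and *T* had no peak. By limma, 3 of 13 of these 41 genes that could be tested were higher in Oct4+ than in DP nEnd by total signal (*Inhbb*, *Pcsk6* and *Foxh1*) and none was lower, where 4.12% of all genes were higher. By total signal none of 10 differed between Oct4+ and Pdgfra+ nEnd, where 4.95% of all genes did, and none of 22 between DP and Pdgfra+ nEnd, where 0% did.

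**Figure D5:**
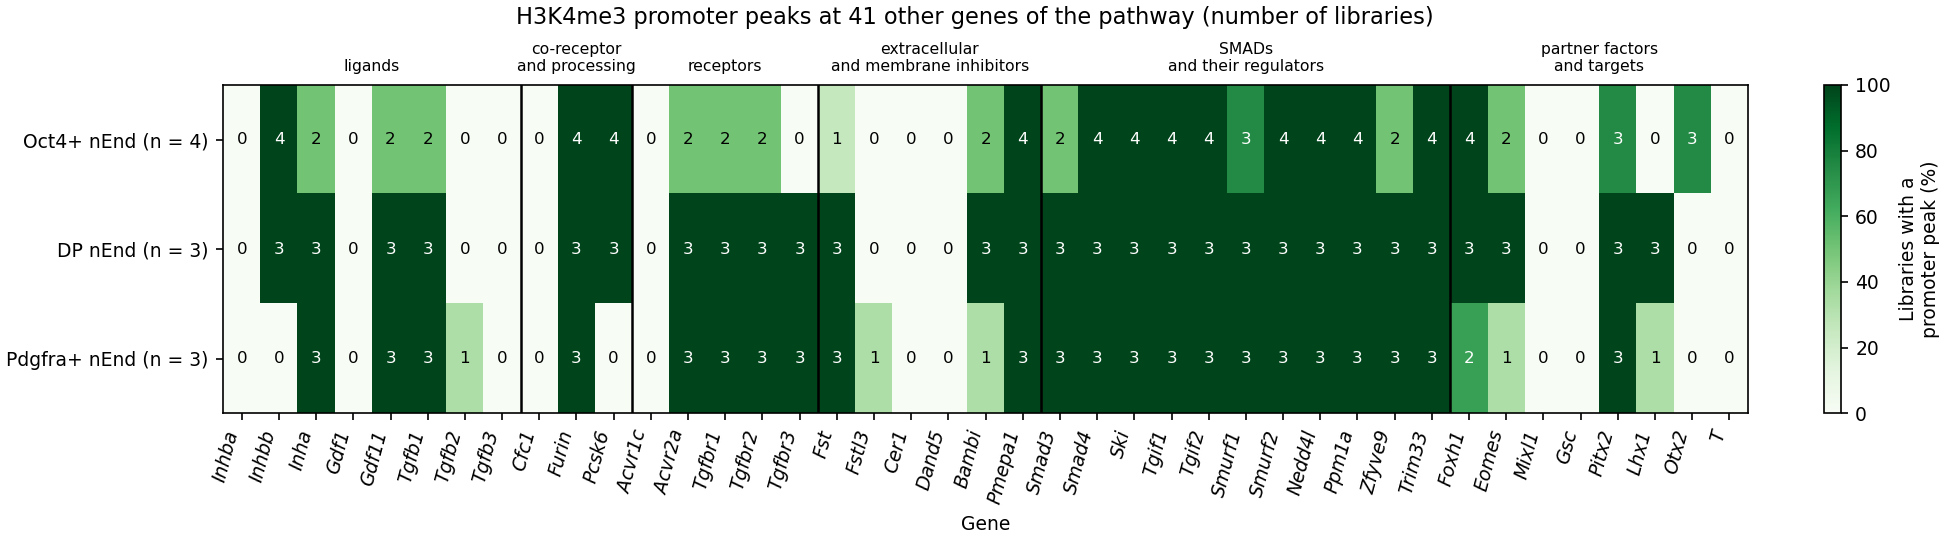
Number of libraries with a promoter peak (digits) and the same as a percentage of libraries (color), for 41 other genes of the pathway grouped by role, in Oct4+ (n = 4), DP (n = 3) and Pdgfra+ nEnd (n = 3). Inhbb and Pcsk6 are marked in all Oct4+ and DP libraries and no Pdgfra+ library, and Tgfbr3 shows the opposite for Oct4+ and Pdgfra+ nEnd.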

How the data were processed

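H3K4me3 CUT&Tag peaks of 10 libraries were used, grouped by the sorted population in the labels. The authors computed coverage with BEDtools (mm10), called peaks with SEACR against IgG under its stringent setting and deposited, for each peak, its total and its highest signal (coverage, not scaled between libraries). Consensus lists, made with DiffBind, were used only to count marked genes. The depth is unknown, so no interval was computed.

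Promoters were windows around 93513 TSS of 21938 protein-coding genes. Where several peaks overlapped, the one of highest total signal was used. Presence was tested with Fisher's exact test (two-sided). Normal scores of the percentiles and log2 widths were compared for each pair of populations with limma 3.58.1 in R 4.3.3, over genes marked in every library of the pair, with Benjamini-Hochberg adjustment over all genes tested and a threshold of 0.05. The study describes its replicates as biological. The labels do not say whether the libraries came from separate cultures, and p-values measure the spread between libraries. The procedures, run in Python 3.11.15 (scipy 1.17.1, numpy 2.4.6, pandas 2.3.3, plots with matplotlib 3.10.9), were tested on simulated data.

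Libraries of the same number deviated together in all 3 numbers (correlation over 3616 genes of 0.194, 0.214 and 0.132) for total signal in Oct4+ and Pdgfra+ nEnd. In the same pair the correlations were also positive, but less even, by highest coverage (0.168, 0.040 and 0.156) and by width (0.126, 0.013 and 0.042). In the other pairs the correlation for number 2 was 0.000 or below in every measure. The labels give no shared batch.

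The 10 genes, the 41 other pathway genes and the marker lists were chosen with earlier results of these data known. The rule for naming genes took the 10, other pathway genes with a presence call or a limma call by total signal (the 3 largest differences per pair and direction), genes that share a peak with one of the 10, and the next gene on each side, of which 1 is not reported here. Other pathway genes given with their number of marked libraries, and the markers given with values, fall outside this rule and were chosen after their values were seen. Alternatives were the promoter window, the overlap, equal numbers of peaks, the TSS used, the genes tested, the reference for percentiles, the scale of width, a replicate block and leaving out each library.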

Additional observations from a re-analysis of the deposited data

Results flagged for a closer look

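A sample was singled out where its gap to the nearest of the other Oct4+ libraries was a large part of the group's range (Dixon's criterion at the 95% level, for the 4 libraries of Oct4+ nEnd only). Of 33 sets of 4 values tested, 5 met it, and chance alone gives about 1 in 20. That rate does not apply to the number of genes marked: where the other counts are equal, any different count meets the criterion. Oct4+ replicate 3 had 8 of the 10 pathway genes marked, where the other Oct4+ libraries had 10, and its *Nodal* peak was 6551 bp wide, where the others were 9809 to 10448 bp. The *Tdgf1* peak of Oct4+ replicate 1 was 15508 bp wide, where the others were 7635 to 8794 bp, and it joined the promoter of *Lrrc2*. The highest coverage of *Smad2* in Oct4+ replicate 2 was 1.26 times the reference median, where the others were at 0.958 to 0.979. *Smad7* in Oct4+ replicate 1 was at percentile 93.7 by highest coverage, where the others were at 98.9 to 99.7.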

How the results depend on the processing

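Under the alternatives tried, *Nodal*, *Gdf3*, *Inhbb* and *Pcsk6* stayed higher in Oct4+ than in DP nEnd by both ranks (limma, adjusted p at most 0.0380) wherever there was a DP peak to test. With equal numbers of peaks none of the 4 was marked in DP nEnd, which ended that test and the presence difference between DP and Pdgfra+ nEnd. *Nodal*, *Gdf3* and *Tdgf1* stayed marked in every Oct4+ and no Pdgfra+ library under all 11 alternatives for presence. *Tgfbr3* lost its presence difference with equal numbers of peaks and, against Pdgfra+ nEnd, with 50% of the window covered, and *Lhx1* lost its own with equal numbers of peaks. The *Smad7* width call ended under 6 of 14 alternatives and the *Foxh1* call under 5 of 14, and no call of a named gene changed direction. A missing peak carries no value and depth is unknown, which limits every comparison of presence.

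With equal numbers of peaks the pathway genes marked per library fell from a mean of 9.5 to 8.25 in Oct4+, from 7.33 to 4.67 in DP and from 5 to 4.33 in Pdgfra+ nEnd. Without single libraries the means were 9.33 to 10, 7 to 7.5 and 5. Genes marked in every library of one population and none of another numbered, with equal numbers of peaks, 389 instead of 78 (Oct4+ over Pdgfra+), 490 instead of 312 (Pdgfra+ over Oct4+), 291 instead of 44 (Oct4+ over DP), 72 instead of 24 (DP over Pdgfra+) and 39 instead of 1 (Pdgfra+ over DP), and with 50% of the window covered the last were 37 and 0. Leaving out single libraries gave 78 to 156 (156 without Pdgfra+ 1, 131 without Oct4+ 3), 312 to 624 (624 without Pdgfra+ 2, 560 without Oct4+ 1), 44 to 99 (99 without Oct4+ 3), 24 to 249 (249 without Pdgfra+ 1, 38 without DP 3) and 1 to 31 (31 without Pdgfra+ 2, 20 without DP 2, 7 without Pdgfra+ 3), and for DP over Oct4+ nEnd 423 to 759 (759 without Oct4+ 1).

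Counts of genes called by limma between Oct4+ and Pdgfra+ nEnd were 179 by total signal, 52 by highest coverage and 84 by width (wider in Oct4+). With equal numbers of peaks they were 846, 216 and 24, with genes marked in at least 2 libraries of each population 304, 154 and 139, with percentiles among genes marked in all 10 libraries 1366 and 370, and relative to the reference median 383 by highest coverage. By total signal, leaving out single libraries gave 37 to 287 (37 without Pdgfra+ 3, 63 without Oct4+ 4, 79 without Pdgfra+ 2, 106 without Oct4+ 2, 287 without Oct4+ 1). By highest coverage it gave 19 to 172 (19 without Pdgfra+ 3, 20 without Oct4+ 4, 29 without Pdgfra+ 1, 172 without Oct4+ 1), and by width 38 to 399 (38 without Pdgfra+ 2, 50 without Pdgfra+ 3, 51 without Oct4+ 1, 233 without Oct4+ 3, 399 without Pdgfra+ 1).

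Higher ranks in Oct4+ than in DP nEnd were called for 160 (total signal) and 118 genes (highest coverage), for 484 and 247 with equal numbers of peaks, for 839 and 393 with percentiles among genes marked in all 10 libraries, and for 325 by highest coverage relative to the reference median. Leaving out single libraries gave 61 to 289 by total signal (61, 71 and 63 without DP 3, 2 and 1, 77 without Oct4+ 4, 100 without Oct4+ 2, 289 without Oct4+ 3) and 57 to 174 by highest coverage (57, 60 and 63 without DP 3, 2 and 1, 78 without Oct4+ 4). The 6 genes that differed in width became 1 with equal numbers of peaks, 17 with genes marked in at least 2 libraries, and 1 to 9 without single libraries (1 without Oct4+ 4, DP 1 or DP 2, 2 without Oct4+ 2).

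For DP against Pdgfra+ nEnd the 0 genes called by total signal became 2 with equal numbers of peaks, 94 with percentiles among genes marked in all 10 libraries and 0 to 9 without single libraries (9 without Pdgfra+ 1). The 1 gene by highest coverage became 0 with 50% of the window covered or equal numbers of peaks, 2 relative to the reference median and 0 to 3 without single libraries (0 without DP 1, DP 3 or Pdgfra+ 3, 3 without Pdgfra+ 1). The 41 genes wider in DP nEnd became 17 with equal numbers of peaks, 17 with genes marked in at least 2 libraries, 1 with ranked widths and 0 to 1101 without single libraries (0 without Pdgfra+ 2, 2 without DP 2, 3 without DP 1, 9 without Pdgfra+ 3, 1101 without Pdgfra+ 1). The causes were not tested.

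With the replicate number as a block (replicate block), 265 genes by total signal, 21 by highest coverage and 212 by width (wider in Oct4+) were called for Oct4+ against Pdgfra+ nEnd, 82 were higher in Oct4+ than in DP nEnd by total signal, 1 differed in width there, and 24 were wider in DP than in Pdgfra+ nEnd. Apart from the first of these, the libraries share only a number. Of the pathway genes named as called, the replicate block ended the call of *Foxh1* (adjusted p = 0.0635) and no other. The scale relative to the reference median was chosen after seeing the data.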
